A study of Mus musculus with 2 samples.

Results

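The genes described here are Arg1, Msr1, Ccr2, Ly6c2, Plac8, Fn1, Chil3, F10 and Clec4e, a list of 9 genes that mark monocytes and the macrophages that arise from them. They were taken by symbol from the gene list of the spatial data, where 8 of the 9 were found among 19070 genes. Ly6c2, the classical surface marker of inflammatory mouse monocytes, had no row, nor had its near-identical neighbour Ly6c1, and neither was analysed here. The members were selected on earlier results of these sections, so the levels of its members on the injured side are a description and support nothing by themselves.

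The data are 2 coronal brain sections from a study of the brain vasculature and its immune cells in mouse models of brain disease. Each section came from a male C57Bl6 mouse (C57BL/6J in the study's methods) that was 3 months old at impact and had received a controlled cortical impact (CCI), a piston blow onto the exposed cortex over the right parietal lobe. One brain was collected 3 days after the impact and the other 28 days after it. Both mice were untreated apart from the surgery according to the labels, were fixed by perfusion and were embedded in paraffin, and no section of an uninjured or sham-operated brain was part of the comparison. Visium HD captured probes for the mouse transcriptome on a grid, and counts of unique molecular identifiers (UMIs, single captured molecules) were given per square bin of 16 µm.

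Monocytes leave the bone marrow, follow chemokines through the receptor CCR2 into injured tissue and mature there into macrophages. In an injured brain they work beside microglia, the resident macrophages, and both take up debris and share many genes of phagocytosis. Genes such as Arg1 and Msr1 are usually read as signs of the incoming cells because resting microglia carry little of them, although stimulated microglia and other macrophages can express them too.

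With 1 section at each time there was no replicate and no test. Every interval given is a 95% interval for counting error only, the side opposite the impact served as the background within each section, and a difference between 3 and 28 days is also a difference between 2 animals. Levels are UMIs scaled to a common total (CPM), and a level of one gene was not set against that of another because their probes differ. A bin can hold parts of several cells, and fewer cells of a type could not be told apart from less RNA per cell.

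In the GENCODE annotation of mm10 the genes lie at chr10:24915221-24927484 (Arg1), chr8:39581685-39642673 (Msr1), chr9:124101950-124113557 (Ccr2), chr5:100553725-100572245 (Plac8), chr1:71585520-71653200 (Fn1), chr3:106147554-106167564 (Chil3), chr8:13037308-13056676 (F10) and chr6:123281789-123289870 (Clec4e), so they are spread over 7 chromosomes.

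Promoters are shown for the measured members whose start regions held letters of the motifs searched, and for Ccr2, which held none. The window of F10, which held none either, is not shown. The Ccr2 window is set around a RefSeq start that lies inside the gene as GENCODE draws it, so most of it is not in front of the GENCODE start. The RefSeq sequences (mouse build GRCm38, which is mm10) run from 250 bases before to 50 bases after the start site, 5′ to 3′ on the strand of the gene, and capitals mark the matches. They lie at chr9:124101933-124102232 on the plus strand for Ccr2, and on the minus strand at chr5:100572156-100572455 for Plac8, at chr3:106167515-106167814 for Chil3 and at chr6:123289822-123290121 for Clec4e. A sequence was matched for 5 of the 8 measured members.
Ccr2: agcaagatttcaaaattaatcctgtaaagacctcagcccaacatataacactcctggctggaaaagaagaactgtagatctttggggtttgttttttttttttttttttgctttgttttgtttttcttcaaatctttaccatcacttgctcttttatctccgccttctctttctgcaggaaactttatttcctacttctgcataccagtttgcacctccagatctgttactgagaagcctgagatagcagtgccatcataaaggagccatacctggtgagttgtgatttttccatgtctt
Plac8: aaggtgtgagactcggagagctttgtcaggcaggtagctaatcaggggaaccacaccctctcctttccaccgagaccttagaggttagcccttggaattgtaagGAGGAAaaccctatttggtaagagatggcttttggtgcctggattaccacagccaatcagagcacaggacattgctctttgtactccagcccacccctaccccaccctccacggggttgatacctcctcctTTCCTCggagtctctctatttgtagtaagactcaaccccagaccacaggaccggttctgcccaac
Chil3: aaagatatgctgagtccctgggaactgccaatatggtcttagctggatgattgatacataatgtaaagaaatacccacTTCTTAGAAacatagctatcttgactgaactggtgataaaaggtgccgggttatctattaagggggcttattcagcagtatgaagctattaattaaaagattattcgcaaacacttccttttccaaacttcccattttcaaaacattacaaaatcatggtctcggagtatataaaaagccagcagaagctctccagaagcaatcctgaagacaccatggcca
Clec4e: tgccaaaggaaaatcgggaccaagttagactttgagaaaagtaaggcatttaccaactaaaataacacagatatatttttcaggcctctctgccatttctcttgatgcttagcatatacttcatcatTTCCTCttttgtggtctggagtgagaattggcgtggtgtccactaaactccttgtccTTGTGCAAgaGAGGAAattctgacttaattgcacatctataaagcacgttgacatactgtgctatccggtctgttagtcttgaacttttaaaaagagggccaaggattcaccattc

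Letters of 5 motifs were searched on both strands: the core of PU.1, the factor of myeloid cells (GAGGAA), AP-1 (TGANTCA), C/EBP (TTGCNNAA), STAT (TTCNNNGAA) and the interferon element ISRE. The PU.1 core stood at 2 places each in the promoters of Plac8 and Clec4e, on opposite strands, and 4.82% of 32851 promoters held it at 2 or more places. Clec4e also held 1 C/EBP match, found in 10.8% of all promoters, and Chil3 held 1 STAT match, found in 8.3%. Neither this window of Ccr2 nor that of F10, which starts at chromosome 8 position 13037308, held any of the 5 motifs. A match is a run of letters and not a shown binding site. Plac8 has a second RefSeq start, whose window (chr5:100563047-100563346) held no PU.1 core and 1 C/EBP match.

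The section at 3 days held 121967 bins with 120615873 UMIs, and that at 28 days 105589 bins with 82422389. Bins under 100 UMIs were left out, which removed 1.93% and 2.15% of bins. The injured side was the part of the array at columns below 2.08 mm at 3 days and below 3.84 mm at 28 days, with a median of 804 and 564 UMIs per bin against 871 and 657 opposite. The lesion zone was placed from 6 phagocyte genes outside the list (Cd68, Lyz2, Ctsz, Lgals3, Cd52 and Laptm5), which macrophages of both origins share. It covered 2.36 mm2 at 3 days, where the array border cut through it, and 3.47 mm2 at 28 days. At 3 days it had 2 patches, and 712 of its 9234 bins lay across the boundary on the side used as background. These bins stayed in the values of the opposite side and were left out of it where the zone itself was compared. As many as 84781 bin names occur in both sections, which is the shared grid of the array and not shared tissue.

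At 3 days all 8 members were at a higher level on the injured side than opposite, from 2.41-fold for Fn1 to 26.1-fold for Arg1. All 8 passed 2-fold, a size that 10.5% of the 16164 genes with at least 20 UMIs reached, and the median log2 ratio was 3.21 for the members and 0.14 for all genes. Since the list was chosen with such results known, nothing is read from this count. Of 13 further monocyte and macrophage genes, which include Lyz2, 9 were 2-fold higher and 1 lower at 3 days and 8 were higher at 28 days, where 6.43% of all genes were, while 0 and 1 of the 7 microglia genes were. In the lesion zone 5 of the 7 microglia genes were 2-fold higher than opposite at either time, where 21.8% of 15391 genes were at 3 days and 17.4% of 14846 at 28 days.

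Ccr2, the receptor for the chemokines that draw monocytes out of the blood, had 179 UMIs on the injured side and 68 opposite at 3 days (4.77 and 0.820 CPM, log2 ratio 2.53, interval 2.13 to 2.96). Plac8, a small cysteine-rich protein abundant in monocytes, had 144 and 21 UMIs (3.83 and 0.253 CPM, log2 ratio 3.89, interval 3.25 to 4.66). Both genes were thus present opposite the impact as well, Ccr2 more evenly than Plac8.

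Arg1, the arginase that turns arginine into ornithine and urea, had 490 UMIs on the injured side and 41 opposite at 3 days (13.04 and 0.495 CPM, log2 ratio 4.71, interval 4.26 to 5.22). Msr1, a class A scavenger receptor that takes up modified lipoproteins and debris, had 482 and 54 UMIs (12.8 and 0.651 CPM, log2 ratio 4.29, interval 3.89 to 4.73). Arg1 was found in 389 bins of the injured side, 0.995% of them, and Msr1 in 429 bins or 1.10%, so each gene was found in a small share of the tissue. Chil3, the secreted chitinase-like protein Ym1, had 63 and 27 UMIs (log2 ratio 2.35, interval 1.69 to 3.07). Its close relative Chil4, whose sequence is similar, had 12 and 16 UMIs, so no higher level on the injured side was resolved for the relative.

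Of the secreted members, Fn1, which encodes the matrix protein fibronectin and is made by fibroblasts and vessels as well as macrophages, had 4045 UMIs on the injured side and 3709 opposite (107.7 and 44.7 CPM, log2 ratio 1.27, interval 1.20 to 1.33). Its counts exceed those of the other members together, so sums are given with and without it. F10, coagulation factor X, had 70 and 6 UMIs (1.86 and 0.0724 CPM, log2 ratio 4.58, interval 3.49 to 6.18). Clec4e, the receptor Mincle that senses damaged cells and mycobacterial lipid, had only 27 and 12 UMIs (log2 ratio 2.28, interval 1.28 to 3.43). F10 and Clec4e therefore rest on few molecules. The 7 members without Fn1 summed to 38.7 CPM on the injured side and 2.76 CPM opposite.

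At 28 days the side difference was no longer shared by all members. It was at least 2-fold for 5 of the 7 with 20 or more UMIs, against 6.43% of 15640 genes, with a median log2 ratio of 2.13 for these members and 0.04 for all genes. The exceptions were Arg1 and Chil3, for which the interval of the ratio included 0.

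Arg1 had 24 UMIs on the injured side and 18 opposite at 28 days (0.647 and 0.399 CPM, log2 ratio 0.69, interval −0.24 to 1.67). Chil3 had 12 and 11 UMIs (log2 ratio 0.40, interval −0.90 to 1.73). For neither gene could a side difference be resolved at this depth. Msr1 had the largest ratio of the 7, although its interval overlaps those of Ccr2, Plac8 and F10, with 164 and 21 UMIs (4.42 and 0.465 CPM, log2 ratio 3.22, interval 2.59 to 3.98).

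Ccr2 had 95 UMIs on the injured side and 26 opposite (2.56 and 0.576 CPM, log2 ratio 2.13, interval 1.51 to 2.84). Plac8 had 41 and 9 UMIs (log2 ratio 2.41, interval 1.41 to 3.70), and F10 19 and 3 (log2 ratio 2.76, interval 1.18 to 5.35). Ccr2 and Plac8 were therefore still one-sided at 28 days, on smaller counts, and the cells that carried them were not identified. Fn1 had 2441 and 1391 UMIs (65.8 and 30.8 CPM, log2 ratio 1.09, interval 0.999 to 1.19), which lies at the 2-fold line. Clec4e had 15 and 3 UMIs, too few for the count.

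**Figure D1:**
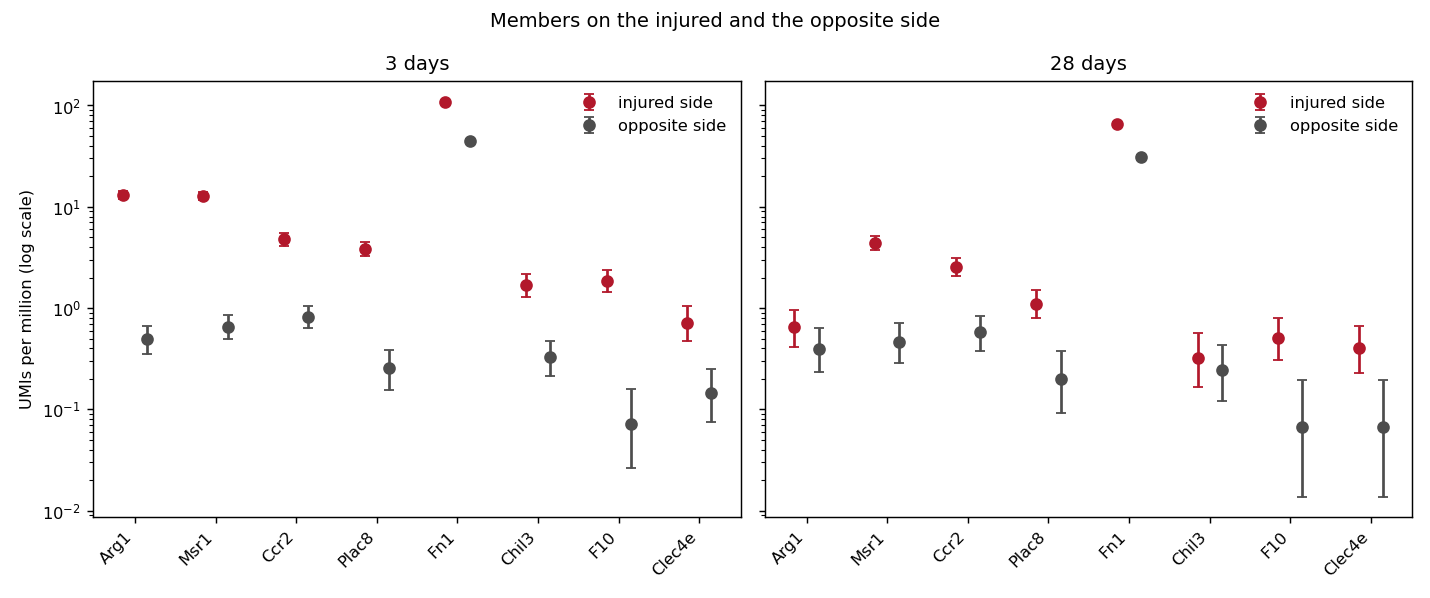
Level of each of the 8 members in CPM (log axis) on the injured and the opposite side of each section, with 95% Poisson intervals for counting error. At 3 days every member lies higher on the injured side, and at 28 days the intervals of Arg1 (0.647 and 0.399 CPM) and Chil3 overlap between the sides.

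Between the 2 sections, 5 of 8 members were at least 2-fold lower on the injured side at 28 days than at 3 days, where 2.79% of 15587 genes were, and the median log2 ratio was −1.66 for the members and −0.06 for all genes. Arg1 differed most, from 13.04 to 0.647 CPM (log2 ratio −4.31, interval −4.99 to −3.74). Chil3 (−2.33), F10 (−1.84), Plac8 (−1.78) and Msr1 (−1.54, interval −1.80 to −1.28) followed. Ccr2 (−0.89, interval −1.27 to −0.53) and Fn1 (−0.71) differed by less than 2-fold, and the interval of Clec4e (−0.81) ran from −1.85 to 0.13. On the opposite side none of the 6 members tested was 2-fold lower, where 1.03% of genes were, and Arg1 had 0.495 and 0.399 CPM there. Over the same interval the summed microglia list went from 434 to 538 CPM on the injured side. The neutrophil list went from 25.6 to 55.3 CPM there, with 1 of 5 genes tested at least 2-fold higher, where 2.15% of all genes were. Opposite it went from 9.62 to 13.9 CPM with 4 of 6 genes tested higher, against 1.52% of all genes. On the injured side the border macrophage list went from 52.4 to 40.1 CPM, with 3 of 8 genes at least 2-fold lower and 1 higher. Opposite it went from 21.7 to 14.8 CPM with 2 of 8 lower. Of the microglia genes 0 of 7 were 2-fold lower or higher, with a median log2 ratio of 0.07. The 13 further monocyte and macrophage genes summed to 454 CPM at 3 days and 585 CPM at 28 days, with 3 at least 2-fold higher, 3 lower and a median log2 ratio of −0.23.

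On the maps Arg1 and Msr1 were dense in the lesion zone at 3 days, and Msr1, Ccr2 and Plac8 lay along the tissue edge of the zone at 28 days. Fn1 and Ccr2 had their densest tiles at 3 days far from the zone, at rows 0.704 and 0.96 mm. At 3 days Arg1 formed 1 compact patch, and 18 of the 690 tiles of 8 by 8 bins on the injured side, 2.61% of them, held 50% of its UMIs. Msr1 filled the same patch and went on beyond it in a band towards the array border, with 32 tiles for 50%. Plac8 needed 17 tiles, Ccr2 23 and Fn1 49. The number of tiles is bounded by the UMIs a gene has (144 for Plac8), so it reflects count as well as concentration and is not set between genes.

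**Figure D2:**
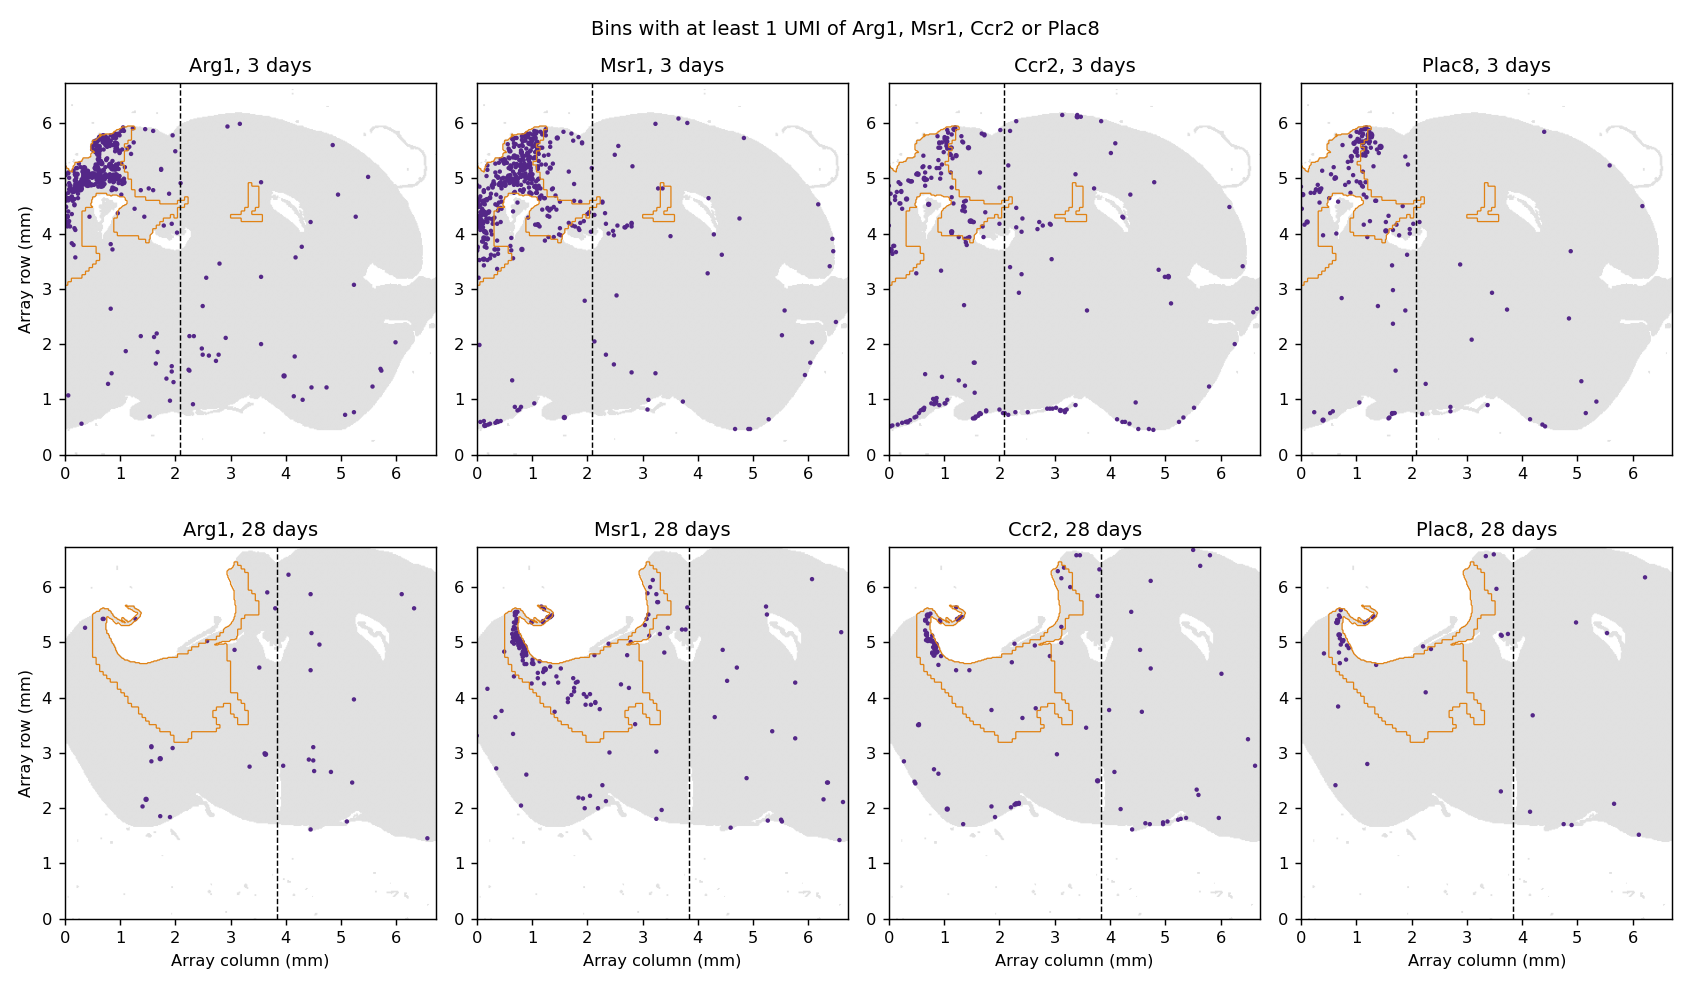
Bins with at least 1 UMI of Arg1, Msr1, Ccr2 or Plac8 (points) on the tissue (grey) at 3 and 28 days, by array column and row in mm, with the lesion zone outlined and the boundary of the injured side, which is to its left, dashed. At 3 days Arg1 fills a compact patch of the zone. At 28 days its 24 UMIs on the injured side are scattered while Msr1 and Ccr2 lie along the tissue edge of the zone.

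Within the section at 3 days, the lesion zone held 4.48% of all UMIs but 85.1% of those of Arg1. The share was 75% for Msr1, 73.7% for F10, 56.7% for Chil3, 56.4% for Clec4e, 48.5% for Plac8, 40.5% for Ccr2 and 24.5% for Fn1. All 8 members were above 2-fold in the zone over the opposite side, where 21.8% of 15391 genes were. The zone was drawn from genes of phagocytes, so genes of such cells were bound to be dense in it, and only the order among the members is described. In that order Arg1 and Msr1 had the largest shares, with F10 (interval 62.3 to 83.1) and Clec4e (39.6 to 72.2) not apart from Msr1 (71.1 to 78.6). Chil3 (45.8 to 67.1), Plac8, Ccr2 and Fn1 had smaller shares than Msr1. Of the Ccr2 UMIs 27.5% lay opposite and 19.0% beyond 2000 µm on the injured side, and 30% of the Chil3 UMIs lay opposite.

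The fall-off beyond the zone was steep for Arg1 at 3 days, from 83.7 CPM inside to 2.37 CPM within 250 µm of its outline and 0.637 CPM from 250 to 500 µm, close to the 0.496 CPM of the opposite side. Msr1 fell from 74.4 to 8.45 and then 1.27 CPM. Plac8 kept more of its level in the first 250 µm, with 5.92 CPM (35 UMIs) against 14.8 CPM inside, and Ccr2 had 3.21 against 18.5 CPM. Several members were higher again beyond 2000 µm than between 1000 and 2000 µm, Ccr2 at 7.68 against 0.520 CPM, Msr1 at 2.94 against 0.312, Plac8 at 2.12 against 0.312 and Fn1 at 157 against 26.6. The border macrophage (61.9 against 14.7 CPM) and fibroblast (442 against 61.5 CPM) lists were so too, and their part was not tested.

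**Figure D3:**
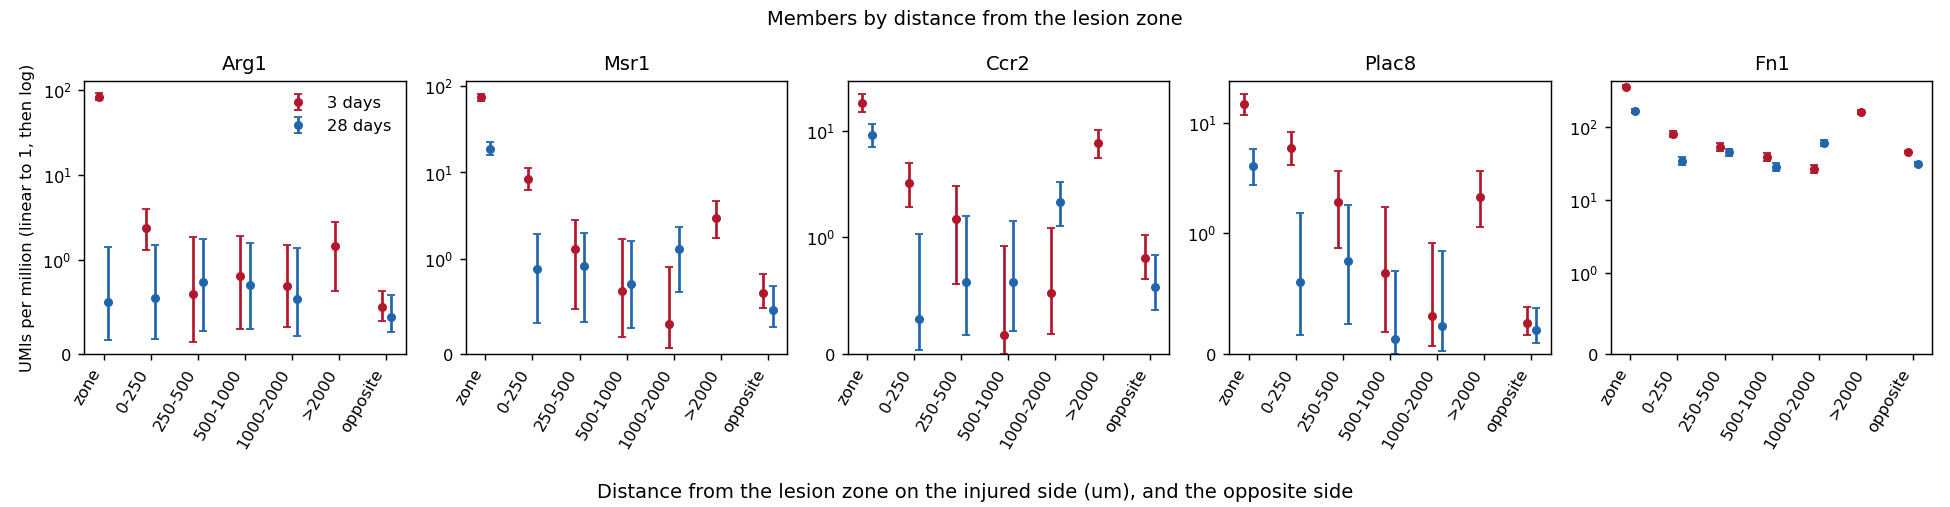
Level of Arg1, Msr1, Ccr2, Plac8 and Fn1 in CPM (axis linear up to 1 and logarithmic above) in the lesion zone, in bands of distance in µm outside it on the injured side and on the opposite side, with 95% Poisson intervals, at 3 and 28 days (no band beyond 2000 µm at 28 days). Arg1 drops from 83.7 CPM in the zone to 2.37 CPM in the first band at 3 days and is level at 28 days.

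At 28 days the zone held 8.70% of all UMIs and 73.0% of those of Msr1, 77.3% of F10, 72.2% of Clec4e, 58.0% of Plac8, 54.6% of Ccr2 and 30.6% of Fn1. Arg1 had 9.52% of its UMIs there, near the share of all UMIs, with 0.559 CPM in the zone and 0.399 CPM opposite. Chil3, at 26.1%, had 6 UMIs in the zone. In CPM of the zone, all 8 members were at least 2-fold lower at 28 days than at 3 days, where 6.08% of 13679 genes were. Ccr2 (log2 ratio −1.002, interval −1.48 to −0.54), Fn1 (−1.10, interval −1.20 to −0.99) and Clec4e (−1.14) lay at or near the 2-fold line. Msr1 went from 74.4 to 18.9 CPM, Ccr2 from 18.5 to 9.22 and Plac8 from 14.8 to 4.05. In the same zones the microglia list went from 965 to 1681 CPM, with 0 of its 7 genes 2-fold higher. The neutrophil list went from 94.4 to 227 CPM, with 1 of 4 genes tested 2-fold higher, where 4.73% of all genes were. In the zone at 28 days 2 of its 10 genes had no UMI. The border macrophage list, genes of the macrophages of meninges and vessels, went from 163 to 89.7 CPM. Of 7 border macrophage genes tested, 4 were 2-fold lower and 1 higher. Their part in the result was not tested.

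Inside the zone at 3 days the members differed in how far they lay from tissue outside it. This distance does not count the tissue edge or the array border as a limit, so a distant bin can lie at either. Arg1 went from 27.7 CPM (63 UMIs) in bins within 100 µm of tissue outside the zone to 102 CPM between 100 and 300 µm and 269 CPM (111 UMIs) beyond 300 µm, with intervals that did not meet. Msr1 went from 38.7 to 93.2 and 148 CPM, and Ccr2 from 11.9 to 20.6 and 41.2 CPM with intervals that met between neighbouring bands. F10 went from 3.08 to 12.5 and 36.4 CPM. For Plac8 no gradient was resolved, with 12.8, 16.2 and 17.0 CPM and overlapping intervals (6.82 to 35.0 on 7 UMIs beyond 300 µm). Fn1 had 288, 400 and 378 CPM. Intervals also overlapped for Chil3 (7.04, 11.05 and 12.1 CPM) and Clec4e (1.76, 5.53 and 7.27 CPM). Only 24.6% of the Arg1 and 15.2% of the Msr1 UMIs of the zone lay beyond 300 µm, where 735 of its bins are. The neutrophil list had 85.8, 82.2 and 223 CPM over the same bands, the border macrophage list 112, 190 and 264 CPM, and the microglia list 960, 1008 and 710 CPM. Their part in the gradient was not tested.

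At 28 days the members also followed the tissue edge of the zone. This edge is any border on a gap of at least 400 empty positions, so a lesion surface was not told apart from the outer brain surface. The array border did not count as an edge. At 3 days 590 zone bins lay at that border, against 0 at 28 days, so the surface of the zone may be only partly in view at 3 days. The edge values of the 2 times are therefore not of like surfaces. The bins of the zone within 100 µm of the tissue edge were 11.9% of the zone and held 59.6% of the UMIs of the 7 members without Fn1, while at 3 days 11.9% of the zone held 14.96% of them. Msr1 had 52.2 CPM (74 UMIs) at the edge and 10.6 CPM (61 UMIs) deeper at 28 days (log2 ratio 2.29, interval 1.79 to 2.81). At 3 days it had 80.0 and 73.6 CPM (log2 ratio 0.13). Ccr2 had 28.9 and 4.36 CPM at 28 days (41 and 25 UMIs, log2 ratio 2.72) and 13.3 and 19.3 CPM at 3 days, where the order was the other way with 9 UMIs at the edge. Plac8 had 13.4 and 1.74 CPM at 28 days (19 and 10 UMIs, log2 ratio 2.91).

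Of the members with 20 UMIs in the zone at 28 days, 4 of 4 were at least 2-fold higher at the edge, where 9.76% of 12997 genes were. At 3 days it was 1 of 8, Fn1 (855 and 279 CPM), against 9.56% of 12772 genes. Arg1 had 123 CPM at the edge and 78.1 CPM deeper at 3 days, and no UMI in the 736 zone bins more than 600 µm from the edge, which allows up to 7.05 CPM. The zones differ in shape, with 5747 bins beyond 600 µm at 28 days. Fibroblast genes followed the edge at both times, with 2085 CPM at the edge and 303 CPM deeper at 3 days and 1636 and 75.8 CPM at 28 days. The border macrophage list did so too, with 277 and 146 CPM at 3 days and 170 and 69.9 CPM at 28 days (log2 ratio 1.28, interval 1.05 to 1.52). The neutrophil list had 211 and 77.9 CPM at 3 days and 234 and 225 CPM at 28 days, and the microglia list 680 and 1006 CPM and 1638 and 1691 CPM. The part of these cells in the edge values of the members was not tested.

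**Figure D4:**
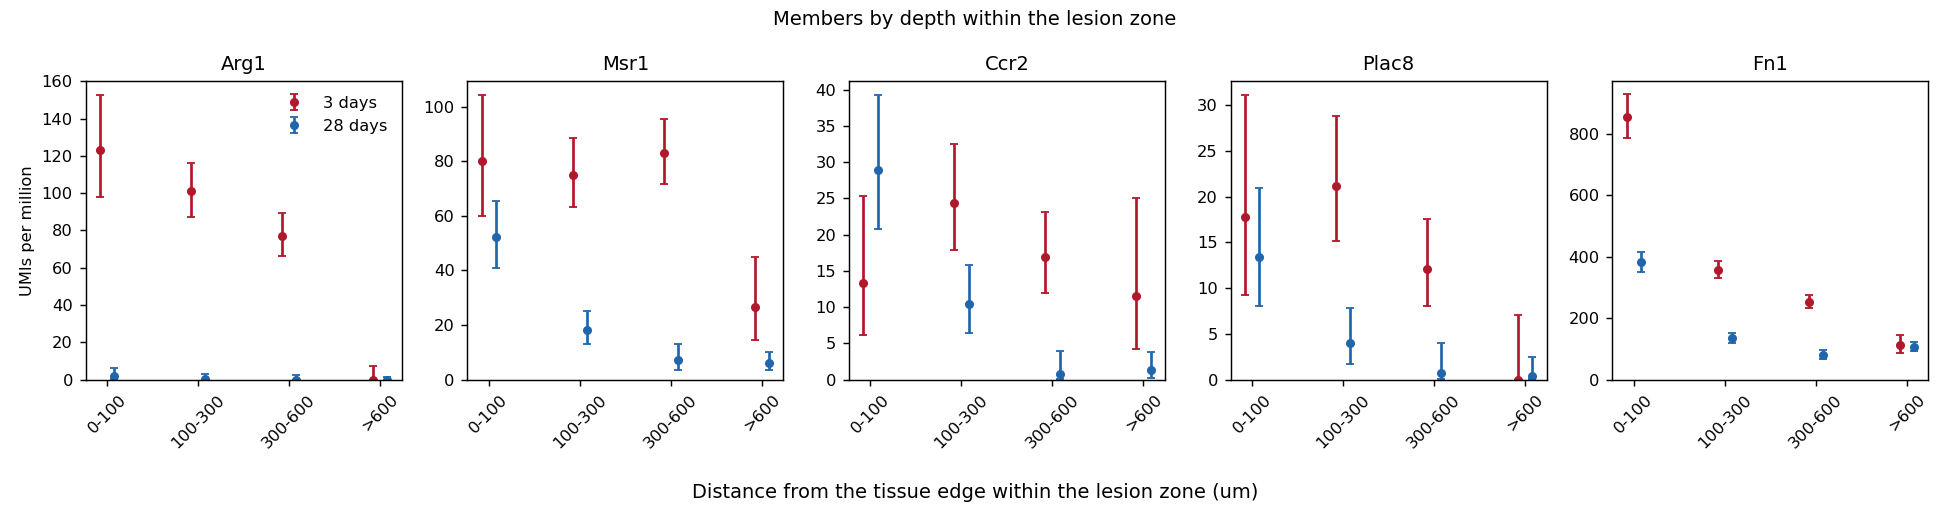
Level of Arg1, Msr1, Ccr2, Plac8 and Fn1 in CPM (linear axis from 0, scaled per gene) within the lesion zone in bands of distance in µm from the tissue edge, with 95% Poisson intervals, at 3 and 28 days. Msr1 falls from 52.2 CPM at the edge to 6.09 CPM beyond 600 µm at 28 days. At 3 days its first 3 bands lie between 75.1 and 83.0 CPM, and it is lower beyond 600 µm (26.8 CPM, 14 UMIs).

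At 28 days several members had their densest tile in the same place. On the injured side 12 of 850 tiles held 50% of the 164 Msr1 UMIs. One tile, at row 4.93 mm and column 0.832 mm, was the densest for Ccr2 (11 UMIs), Fn1 (68 UMIs) and Clec4e (3 UMIs). It held 32 of the 370 UMIs of the 7 members without Fn1. The densest tile of Msr1, with 13 UMIs, was its neighbour at row 4.8 mm. Plac8 and F10 both peaked at row 5.44 mm and column 0.704 mm. The microglia list also peaked in the tile at 4.93 mm (340 UMIs), and the neutrophil list next to it (163 UMIs). These are raw UMI sums that were not scaled to the depth of a tile, so a deep tile can lead for many genes at once.

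Outside the lesion Ccr2 had a higher level at the tissue edge than deeper. At 3 days the bins within 100 µm of the tissue edge on the opposite side were 8.28% of bins and held 60.3% of its UMIs there, 8.47 CPM against 0.347 CPM deeper (41 and 27 UMIs, log2 ratio 4.602). On the injured side outside the zone it had 13.6 and 1.45 CPM (36 and 43 UMIs, 45.6% at the edge). At 28 days the values were 6.09 and 0.542 CPM on the injured side (14 and 15 UMIs, 48.3%) and 5.66 and 0.347 CPM opposite (11 and 15 UMIs, 42.3%). An edge level above the interior was therefore found in both sections on both sides. Msr1 (3.93 and 0.437 CPM) and Plac8 (1.86 and 0.154 CPM) also had a higher level at the edge opposite the impact at 3 days, with log2 ratios of 3.19 and 3.61 (interval 2.17 to 4.96, on 9 and 12 UMIs, for Plac8), and none of the 41 Arg1 UMIs there lay at the edge. Fn1 (426 and 21.0 CPM, log2 ratio 4.35) and the fibroblast (4.45) and border macrophage (3.46) lists followed the same edge, as they did at 28 days (3.54, 3.61 and 2.95 opposite), and the part of these cells in the edge values was not tested. Such edge bins include the meninges, and 21.1% of all genes were 2-fold higher in them on the opposite side at 3 days, as were 4 of the 6 members tested. On the injured side outside the zone it was 5 of 5 members against 18.9% of genes. At 28 days it was 3 of 4 members against 18.8% on the injured side and 3 of 3 against 20.8% opposite.

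Bins with one member held another member at 3 days more often than bins without it. To compare bins of unequal depth, shares were computed for bins thinned to 300 UMIs, which leaves out 4297 shallower bins of the injured side at 3 days. Of the Arg1 bins, 34.0% (interval 27.0 to 41.7, 157 bins expected after thinning) held another member, against 4.03% of bins without Arg1. Without thinning the first share was 42.2%. With Fn1 set aside the thinned shares were 14.2% and 0.910%.

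Because the members also share the lesion zone, the shares were taken within it as well. There 15.3% of Arg1 bins (interval 10.4 to 22.1) held another member apart from Fn1, against 3.56% of the other zone bins. For Msr1 bins it was 11.1% against 3.38%, for Ccr2 bins 16.3% (interval 7.995 to 30.5) against 4.97% and for Plac8 bins 13.4% (interval 5.41 to 29.5) against 5.10%. The pair of Arg1 and Msr1 met in 9.13% of Arg1 bins (interval 5.44 to 14.9) against 2.07% of the other zone bins. In full-depth bins of the zone, 7 of 91 Ccr2 bins held Plac8, 7.69% against 0.711% of the others. Arg1 was in 12 of the 91 Ccr2 bins, 13.2% against 3.71%, and Msr1 in 12 as well. Plac8 was in 3 of 354 Msr1 bins, 0.847% against 0.777%, so Msr1 and Plac8 were the only one of the pairs among these 4 genes without a higher share. This rests on 3 UMIs of Plac8 (log2 ratio of its level in Msr1 bins −0.15, interval −2.67 to 1.24). A higher share could therefore not be told apart from none. Ccr2 and Msr1 bins were deeper than the rest, with medians of 683 and 646.5 UMIs.

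**Figure D5:**
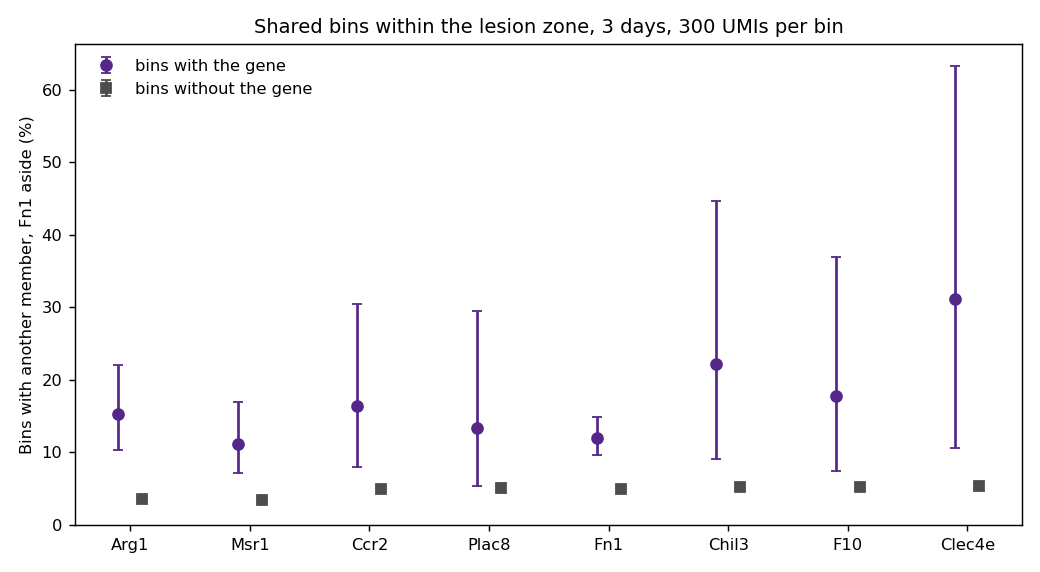
Share of lesion zone bins at 3 days, thinned to 300 UMIs, that held another member apart from Fn1, for bins with and without each member, with 95% Wilson intervals. Arg1 bins stand at 15.3% and the other zone bins at 3.56%.

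Bins with at least 2 of the 7 members without Fn1 numbered 121 on the injured side at 3 days, 110 of them in the zone, and 14 bins held at least 3. At 28 days there were 23 such bins, all 23 in the zone, and 2 with at least 3 members. At 28 days the thinned data could not resolve sharing. Of the Msr1 bins, 1.04% held another member apart from Fn1 after thinning (interval 0.105 to 9.48), against 0.132% of the others. In full-depth bins it was 15 of 151, 9.93% against 0.326%, but the zone bins with Msr1 had a median of 1453 UMIs and the other zone bins 397.

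What else was dense in the bins of a member was then compared within the zone. The 351 Arg1 bins at 3 days were as deep as the rest (median 479 and 484 UMIs), and 6.96% of the 2744 genes with 20 or more UMIs in them were at least 2-fold higher. The filter on UMIs in those bins favours genes that are high there, so no count of members is given. The genes with the largest ratios included the monocyte chemokine Ccl7 (log2 ratio 3.13), the scavenger receptor Cd36 (3.08), thrombospondin Thbs1 (3.03), the apolipoprotein Apoc2 (2.77), the collagen crosslinking enzyme Loxl2 (2.56), the platelet and border macrophage chemokine Pf4 (2.54), Lyz2 (2.501), the fibronectin receptor subunit Itga5 (2.40) and the beta-globin Hbb-bs (2.36). Msr1 was higher there too (2.09, interval 1.64 to 2.49, 55 UMIs). Ccr2 (2.04, interval 1.02 to 2.84), Plac8 (1.99, interval 0.80 to 2.89) and F10 (2.41, interval 1.13 to 3.39) rested on 13, 10 and 9 UMIs in these bins. Microglia genes were not, with a log2 ratio of −0.12 (interval −0.35 to 0.10). The list of further monocyte and macrophage genes, which holds Thbs1 and Lyz2, had 1.44 (interval 1.33 to 1.55). The border macrophage (1.78), neutrophil (1.75) and fibroblast (1.88) lists were higher too, and their part in the result was not tested.

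The 354 Msr1 bins at 3 days were deeper than the rest (median 646.5 and 477 UMIs), and 3.12% of 3756 genes were 2-fold higher in them. Highest were Adam8 (2.18), a protease of activated leukocytes, and Arg1 (2.18), then Spp1 (1.99), which encodes osteopontin, Stab1 (1.95), a scavenger receptor, Tmem106a, Ccl4, Plin2, Milr1, Abcc3 and Sla. The microglia (log2 ratio 0.60), border macrophage (1.72, interval 1.43 to 2.00), further monocyte and macrophage (0.62) and fibroblast (0.64) lists were also higher there. The neutrophil list had 0.49 (interval −0.09 to 0.98). The 91 Ccr2 bins (6.06% of 545 genes) led with Tgfbi (2.22), Fxyd5 (2.21), Aldh1a2 (2.19), Adam8, H2-Aa (1.98), Thbs1, Mgp, Srgn, Cd74 (1.78) and Alox5ap. H2-Aa and Cd74 belong to antigen presentation by MHC class II. Microglia genes (−0.45) were lower in the Ccr2 bins, and the neutrophil list had −0.29 on 5 UMIs. The further monocyte and macrophage (1.04), border macrophage (1.16) and fibroblast (1.17) lists were higher. Dendritic cells also carry Ccr2 and MHC class II, and 4 of 7 genes of their list were at least 2-fold higher and 2 lower in the zone than opposite at 3 days (median log2 ratio 1.80), where 21.8% of all genes were higher and 11.1% lower, although the sum was 30.2 and 33.5 CPM. At 28 days 3 of 7 were higher (median 0.26, sums 89.6 and 30.6 CPM), against 17.4% of all genes. In the Ccr2 bins themselves the list had log2 ratios of 0.71 (interval −1.80 to 2.06) at 3 days and 0.35 (interval −0.78 to 1.17) at 28 days. The part of these other cells in the bins of Msr1 and Ccr2 was not tested.

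At 28 days 12.1% of 1972 genes were 2-fold higher in the 122 Msr1 bins of the zone, led by Cxcl10 (3.31), Mmp3 (3.24), Mmp12 (3.06), Saa3 (3.05) and S100a9 (2.84), then Sfrp1, Ptx3, Tnc, Igfbp3 and Stra6l. These include matrix proteases, acute phase proteins and a neutrophil gene. In the Msr1 bins the further monocyte and macrophage list had 1.99 (interval 1.90 to 2.07). The fibroblast (1.73), border macrophage (1.72), neutrophil (1.37) and microglia (0.41) lists were higher there too, and the neuron list lower (−2.27). The 56 Ccr2 bins (17.5% of 708 genes) led with Tgfbi (3.30), Mmp3 (3.00), S100a9 (2.53) and the MHC class II gene H2-Ab1 (2.42), then Timp1, Slfn2, Lbp, H2-Aa, Tnfaip2 and Alox5ap. Tgfbi, H2-Aa and Alox5ap were among the leading genes of Ccr2 bins in both sections. Both sets of bins were deeper than the other zone bins (median 1453 and 1708 UMIs against 397 and 398). The further monocyte and macrophage (1.81), fibroblast (1.75), border macrophage (1.02) and neutrophil (1.24) lists were higher in the Ccr2 bins too. A list of T cell genes had the largest ratio of the cell type lists there, 2.32 (interval 0.53 to 3.47), on 5 UMIs. In the zone at 28 days 3 of its 4 genes tested were at least 2-fold higher than opposite, against 17.4% of all genes. The part of depth and of the other cells was not tested.

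The members' maps were compared over the tiles of 8 by 8 bins. Across 666 tiles of the injured side the Pearson correlation of square-root CPM was 0.60 for Arg1 and Msr1, 0.53 for Fn1 and Msr1 and 0.51 for Fn1 and Arg1. Across 822 tiles at 28 days no pair went above 0.32, and no pair with Arg1 above 0.09. Tiles of 1 section are neighbours and share its depth, so these values describe the map. Low counts limit r (Arg1 had 490 UMIs on the injured side at 3 days and 24 at 28 days), so r is not compared between times or between genes.

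The genes whose maps were most like the sum of the 8 members at 3 days were Spp1 (r = 0.84), Lyz2 (0.77), Thbs1 (0.76), Timp1 (0.75) and Hmox1 (0.75), and without Fn1 Spp1 (0.82), Thbs1 (0.81), Hmox1 (0.81), Lyz2 (0.78) and Plin2 (0.77). The names depend on the measure, since with Spearman correlation 1 of the first 5 remained at 3 days and 0 at 28 days. For Arg1 they were Thbs1 (0.82), the haem-degrading enzyme Hmox1 (0.76) and Spp1 (0.74), and for Msr1 Spp1 (0.75), Lgals3 (0.73) and the lysosomal protease Ctsb (0.73). For Ccr2 they were Lyz2 (0.50), Emp3 (0.48) and Tgfbi (0.48), and for Plac8 the chemokine Ccl12 (0.45), Srgn (0.43) and Tubb6 (0.42). Fn1 ran with Timp1 (0.75), Spp1 (0.74) and Fxyd5 (0.74). Spp1 was thus among the leading genes of Arg1, Msr1 and Fn1, and none of theirs led for Ccr2 or Plac8.

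At 28 days the sum was dominated by Fn1 and ran with Nupr1, Ahnak, Aldh1a2 (0.67), Serping1 (0.66) and Ptgds (0.65). Aldh1a2 and Ptgds are genes of the meninges among other places, and Fn1 alone gave Aldh1a2 (0.67), Nupr1 (0.67) and Ptgds (0.66). Without Fn1 the genes were Lyz2 (0.53), complement C3 (0.50), Vim (0.49), Lgals3 (0.47) and Gpnmb (0.46). Msr1 gave C3 (0.53), Lyz2 (0.50) and Lgals3 (0.48). Lyz2 and Lgals3 had also placed the zone.

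The other genes of the members' pathways, from lists set beside the members, were counted in the same way. The counts stand against 10.5% of all genes at least 2-fold higher at 3 days, 6.43% at 28 days, and 2.79% at least 2-fold lower at 28 than at 3 days. Of the genes that recruit monocytes, ligands and receptors around Ccr2, 9 of 10 tested were at least 2-fold higher at 3 days and 7 of 10 at 28 days, and 5 were at least 2-fold lower at 28 than at 3 days. Ccl2, the main ligand of Ccr2, had 466 UMIs on the injured side and 89 opposite at 3 days (log2 ratio 3.52), 2.64 at 28 days, and a log2 ratio of −2.37 between the times. Ccl7 (3.26, 2.30 and −1.77) and Ccl12 (2.77, 2.21 and −2.38), which bind the same receptor, went the same way. Ccl3, a ligand of other receptors, did not, with 2.34, 2.65 and 0.40, nor did the growth factor Csf1, with 1.07, 1.17 and 0.07. Ccr2 itself had −0.89 between the times. The remaining genes of the 5 are not named here, and Ccl2, Ccl7 and Ccl3 were named after their values were seen. No contrast between ligands of Ccr2 and other genes is therefore drawn.

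Of the enzymes and transporters of arginine and polyamine metabolism around Arg1, 1 of 10 was 2-fold higher at 3 days and 0 of 10 at 28 days, near the shares of all genes (median log2 ratios 0.36 and 0.16). In the lesion zone 4 of 10 were higher and 1 lower at 3 days, and 4 higher and 2 lower at 28 days, where 21.8% and 17.4% of all genes were higher. Odc1, which makes putrescine from ornithine, had log2 ratios of 0.75 and 0.37, Ass1, which feeds arginine synthesis, 0.84 and 0.17, and Sat1, which acetylates polyamines, 0.72 and 0.60. Of the genes of alternative macrophage activation 3 of 5 were 2-fold higher and 1 lower at 3 days, and 5 of 6 were higher at 28 days. Il1rn, the interleukin-1 receptor antagonist, had log2 ratios of 3.30 and 3.12 and Tgfb1 1.39 and 1.78, so both were one-sided at a time when the intervals of Arg1 and Chil3 included 0.

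Among scavenger receptors, the group of Msr1, 4 of 9 were 2-fold higher at 3 days and 3 of 8 at 28 days, and none was 2-fold lower at 28 than at 3 days on the injured side, while in the lesion zone 2 of 8 were 2-fold lower and 2 higher, against 6.08% and 4.73% of all genes. Stab1 had log2 ratios of 1.70 and 1.27, Cd36 1.51 and 0.90 and Axl 0.85 and 1.12, while the lysosomal Scarb2 had 0.34 and 0.21. Of the signalling partners of Clec4e, 5 of 9 were 2-fold higher at 3 days and 6 of 9 at 28 days, among them the adaptor Fcer1g (1.60 and 2.499) and its relay Card9 (1.09 and 1.49), and again none was 2-fold lower at 28 days on the injured side. For coagulation and its control, the setting of F10, it was 6 of 10 and 5 of 10, with tissue factor F3 at 0.59 and 0.35, the urokinase Plau at 1.46 and 2.44 and its receptor Plaur at 2.43 and 2.35. Between the times 2 of 11 were 2-fold lower and 1 higher on the injured side, and 4 of 10 were lower and 1 higher in the zone. For the receptors and matrix partners of fibronectin it was 5 of 9 and 1 of 9, with the syndecan Sdc4 at 1.05 and 0.79, Itga5 at 1.61 and 0.82 and the matrix protein Tnc at 2.02 and 0.68. Between the times 1 of 9 was 2-fold lower on the injured side, and 3 of 9 were lower and 2 higher in the zone.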

How the data were processed

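Spatial expression was measured in 1 section per time. The deposited values are raw UMI counts per gene and 16 µm bin, which the authors made with Space Ranger 4.0.1 from probes of the mouse probe set on mm10, with no normalization. Bins with at least 100 UMIs were kept and summed per area. CPM were compared as log2 ratios with 0.5 UMI added, for genes with at least 20 UMIs. Intervals were exact (Poisson, conditional binomial, Clopper-Pearson) or Wilson for shares of bins, at 95%, and covered counting error only. The zone joined 64 µm tiles whose phagocyte share, averaged over 5 by 5 tiles, passed the 99th percentile of the opposite side, in patches of at least 25 tiles. Thinned shares are expected values for 300 UMIs drawn from each bin. The tissue edge faced gaps of at least 400 empty positions. Likeness used tiles with at least 5000 UMIs and genes with at least 100 UMIs on the injured side, and the 5 genes (3 for a single member with 100 UMIs) with the highest r were named. For bins of a member, the 10 genes with the largest ratio were named, of which 1 gene is not reported here. From each list, up to 4 genes with the most UMIs on the injured side could be named, and Ccl2, Ccl7, Ccl3, Sat1, Stab1, Cd36, Plaur, Itga5 and Tnc were named outside that rule, after their values were seen. The members and the lists were chosen with earlier results of these data known. Alternatives included edgeR 4.0.16 scaling (TMM), other bins, zones and boundaries. The calculations were tested on simulated data. Python 3.11.15, numpy 2.4.6, pandas 2.3.3 and scipy 1.17.1 were used.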

Additional observations from a re-analysis of the deposited data

How the results depend on the processing

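All 8 members stayed at least 2-fold higher on the injured side at 3 days under each of the 9 alternatives run. Of 216 member values recomputed over the 3 comparisons, 205 kept direction and call (2-fold with at least 20 UMIs), 9 were called newly (1 of them, Clec4e at 28 days, only through the filter), 2 lost the call and 0 reversed. Those 2 were Fn1 at 28 days, 0.95 with the boundary moved 20 columns towards the opposite side and 0.93 with UMIs per bin. The count lower at 28 days became 8 with UMIs per bin and 8 in the lesion zone, in place of 5, and 7 with the boundary moved 20 columns towards the injured side. The share of Arg1 bins with another member, 34.0%, was 42.2% unthinned, 17.5% thinned to 150 UMIs, 57.8% in 32 µm bins and 14.2% without Fn1. The zone's share of member UMIs, 32.4% at 3 days, was 53.9% with the 95th percentile, 28.6% with 3 by 3 tiles and 69.1% without Fn1; the 33.6% at 28 days became 51.3%, 31.5% and 58.6%. Of the 5 genes most like the members, Spearman correlation shared 1 at 3 days and 0 at 28 days, 64 µm tiles shared 2 at 28 days, and leaving out Fn1 shared 0 there. Leaving out Fn1 was chosen after seeing the data. TMM moved the ratios of all genes by −0.15 at 3 days. No paired analysis was possible because each time had 1 section. Clec4e, F10 and Chil3 rest on under 100 UMIs, and at 28 days no sharing of bins was measurable at 300 UMIs.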
